A study of Mus musculus with 16 samples.

Results

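The myogenic regulatory factors and the Mef2 factors were followed across skeletal muscle of CHCHD4 Tg mice (Tg) and wild-type mice (WT), each with and without treadmill training. The set was chosen by name and holds 10 genes out of 55487 in the deposited table: Myod1, Myf5, Myog, Myf6, Mymk, Pax7, Pax3, Mef2a, Mef2c and Mef2d. All 10 were present, and 9 passed the filter on low counts that left 17490 genes for testing; Mymk did not. The groups were Tg with treadmill training (Tg trained), Tg without it (Tg untrained), WT with training (WT trained) and WT without it (WT untrained), with 4 RNA-seq libraries each. CHCHD4 works in the space between the mitochondrial membranes, where it forms disulfide bonds in proteins as they are imported. The promoter that drives the transgene, the strain, age and sex of the mice, the muscle and the length of training are not given in the sources used here. Nothing in the labels ties each library to its own mouse; the p-values therefore rest on the spread among libraries, which may be technical.

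Myod1, Myf5, Myog and Myf6 encode basic helix-loop-helix proteins that pair with E proteins and bind E-box sites at muscle genes. In the embryo and in regenerating muscle Myf5 and Myod1 act early and commit cells to the muscle lineage, Myog drives their differentiation, and Myf6, also called MRF4, is the family member most expressed in mature fibres. Pax7 and Pax3 encode paired-box factors that mark satellite cells, the stem cells of muscle, and their embryonic precursors. The Mef2 factors are MADS-box proteins that bind beside the myogenic factors, are held back by class IIa histone deacetylases and respond to contraction. Mymk encodes myomaker, a membrane protein needed for myoblasts to fuse.

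Myog is a target of Myod1, and the part of its promoter just before the start of transcription is shown because the level of Myog relative to Myod1 was measured below. The sequence is from RefSeq (GRCm38.p6, chr1:134289754-134290003, plus strand) and holds the 250 bases before the start site, 5′ to 3′. Capitals mark the E-boxes, CANNTG, searched on both strands.
Myog promoter: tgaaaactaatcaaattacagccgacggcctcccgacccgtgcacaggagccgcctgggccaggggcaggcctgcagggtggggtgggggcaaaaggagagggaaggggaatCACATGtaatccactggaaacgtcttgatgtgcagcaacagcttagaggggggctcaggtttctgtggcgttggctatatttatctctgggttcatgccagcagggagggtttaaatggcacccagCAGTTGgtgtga
The first bases of the 2 E-boxes lie at -138 and -12 relative to RefSeq's start site. GENCODE M21 starts the gene at 134289989, inside the window, and the second E-box lies after that start. An E-box is common: 66.2% of 32851 promoter windows of this length held at least 1, and 31.8% held at least 2. Promoter windows were matched for 6 of the 10 genes (8 windows), and 3 of the 8 held an E-box.

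Library totals ranged from 40888272 to 61703679 expected counts. Levels are given in CPM, counts scaled to a fixed library total after TMM, a factor that allows for differences in composition. Chchd4 separated the genotypes in every library, at 21.6 to 22.2 CPM in Tg trained and 18.1 to 22.2 in Tg untrained libraries, against 7.26 to 8.85 in WT trained and 6.88 to 8.98 in WT untrained libraries. The myofibre markers Acta1, Ckm, Ttn, Myh1, Myh2, Myh4, Myh7 and Tnnt3 were detected in all 16 libraries and summed to 160292 to 188728 CPM in 15 of them. WT untrained replicate 2 stood apart with a sum of 123468 CPM. It also had the highest TMM factor (1.28), and 7.82% of 12270 genes were more than 0.5 log2 units above and 12.6% more than 0.5 below the mean of the other 3 libraries of its group. The slow-twitch myosin Myh7 exceeded 10 CPM in 4 libraries: Tg untrained replicates 2 and 3 (64.3 and 42.1), WT trained replicate 3 (29.7) and WT untrained replicate 2 (11.2). The liver transcript Alb exceeded 10 CPM in Tg untrained replicate 2 (14.97), WT trained replicate 4 (35.6) and WT untrained replicate 2 (14.9).

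The 10 genes spanned a wide range of levels, and the order per length of annotated exon was headed by Mef2c and Myf6. Length is the union of a gene's annotated exons: 15715 bases for Mef2c, 14681 for Mef2a, 5985 for Mef2d and 1263 for Myf6. The length of the transcripts expressed here was not measured, and without length the order differed. In CPM, Mef2c averaged 388, Mef2a 109, Mef2d 85.9 and Myf6 31.2 over the 16 libraries. Per kilobase of exon, Mef2c averaged 24.7 ± 1.91 and Myf6 24.7 ± 3.34 CPM per kb over the 16 libraries (SD). These did not differ beyond their spread: Mef2c was the higher one in 9 of 16 libraries. Mef2d followed at 14.4 ± 1.19, below Myf6 in every library, and Mef2a at 7.44 ± 1.56. The ranges of Mef2d and Mef2a overlapped only through Mef2a in WT untrained replicate 2, and Mef2d was the higher in all 16 libraries. Myod1 averaged 4.14 ± 0.949 and Myog 1.07 ± 0.442 CPM per kb, each with a range clear of its neighbours. Pax7 (0.241 ± 0.0427), Myf5 (0.215 ± 0.0560), Pax3 (0.104 ± 0.0303) and Mymk (0.0449 ± 0.050) formed the low end, with overlapping ranges. Per length of annotated exon, transcripts of the mature-fibre factor Myf6 and of Mef2c were at the highest level of the 10 genes. Those of the satellite cell factors and the fusion gene were at the lowest. Satellite cell nuclei are few among fibre nuclei, and in bulk tissue fewer cells of a type and less RNA per cell cannot be told apart.

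**Figure D1:**
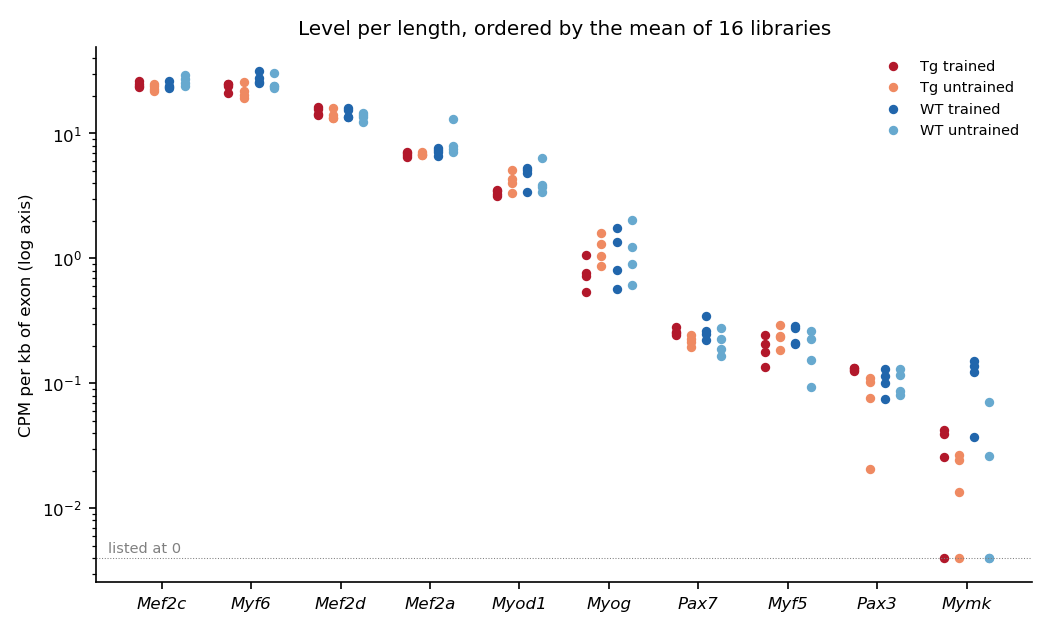
Level of each gene per kilobase of exon (CPM per kb, log axis), 1 point per library, coloured by group and ordered by the mean of 16 libraries. Mef2c and Myf6 share the top, Myod1 and Myog each stand clear of their neighbours, and Mymk is listed at 0 in 4 libraries, drawn on the dotted line.

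None of the 9 tested genes was called in any of 7 contrasts at an adjusted p under 0.05 (edgeR's quasi-likelihood test with Benjamini-Hochberg adjustment over 17490 genes). Calls were rare in the whole table too. With training in Tg, 0 of 9 were called, beside 0% of all genes tested, and the genes' log2 fold changes (log2FC) ran from -0.64 to 0.74. With training in WT, 0 of 9 were called, beside 0.143%, and log2FC ran from -0.30 to 0.42. For Tg against WT with training, 0 of 9 were called, beside 0.0114%, at -0.54 to 0.31. For Tg against WT without training, 0 of 9 were called, beside 0.743%, at -0.43 to 0.39. For the difference between the training responses, Tg minus WT, 0 of 9 were called, beside 0.0515%. With training averaged over genotype 0 of 9 were called, beside 0.457%, and with Tg averaged over training 0 of 9, beside 1.12%. These contrasts share libraries and are not independent of each other.

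At an unadjusted p under 0.05, edgeR counted 1 of the 9 genes for training in Tg (Pax3), 1 for training in WT (Mef2a), 1 for Tg against WT with training (Myod1) and 2 without training (Mef2a and Mef2c). It counted 0 for the difference of the responses, 1 for training averaged (Pax7) and 2 for Tg averaged (Myf6 and Mef2a). Of all 17490 tested genes, 11.1% were under that p for training in Tg, 9.55% for training in WT, 7.98% for Tg against WT with training and 16.2% without, 6.03% for the difference, 14.4% for training averaged and 17.2% for Tg averaged. DESeq2 and limma-voom also called none of the 9 in any of the 7 contrasts. At an unadjusted p under 0.05 DESeq2 named the same genes as edgeR and added Mef2c for the difference of the responses, while limma-voom named Pax7 in place of Mef2a for training in WT. The medians of the 9 log2FC were 0.08 for training in Tg, 0.09 for training in WT, -0.08 for Tg against WT with training and -0.05 without. The medians over all tested genes ranged from -0.0087 to 0.0054 over the 7 contrasts.

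**Figure D2:**
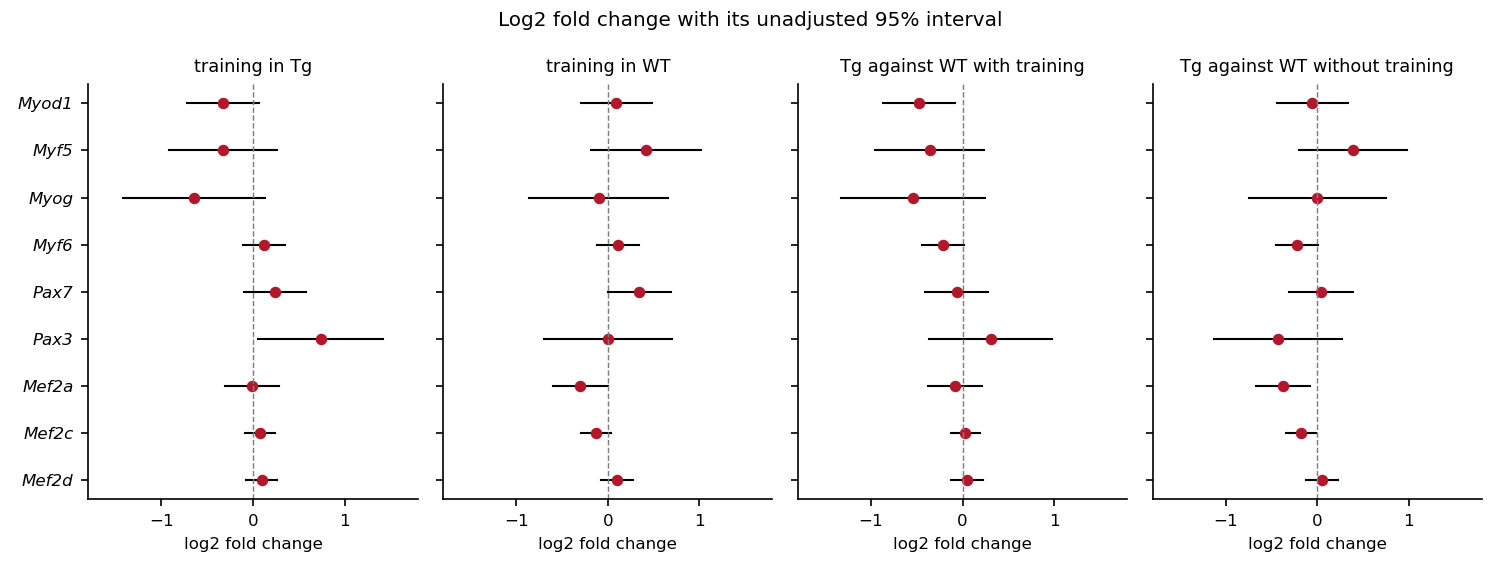
Log2 fold change (x axis) of the 9 tested genes (y axis) in the 4 pairwise contrasts; points are edgeR estimates and lines their unadjusted 95% intervals. Intervals are narrow for Mef2c and Mef2d and wide for Myog, Pax3 and Myf5, and no gene passed the adjusted threshold.

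Myod1, which opens the muscle programme, was low and even in the trained Tg muscles. Myod1 (ENSMUSG00000009471.4, GRCm38 chromosome 7, 46376474 to 46379099) had 6.59, 5.84, 6.43 and 6.10 CPM in Tg trained libraries and 8.07, 6.21, 7.48 and 9.55 CPM in Tg untrained ones. It had 6.38, 9.93, 9.43 and 8.99 CPM in WT trained libraries and 6.35, 11.9, 6.91 and 7.21 CPM in WT untrained ones. Of the 4 WT trained libraries, 3 lay above every Tg trained library, and replicate 1 lay among them, so the groups overlapped. The log2FC of Tg against WT with training was -0.47 (SE 0.185), with an unadjusted p of 0.0207 and an adjusted p of 0.529 (edgeR), and a 95% interval on the fold of 0.549 to 0.944. Leaving out single libraries or the Myh7-high libraries kept this value between -0.60 and -0.40. Training in Tg gave -0.33 (SE 0.184, adjusted p = 0.543) and training in WT 0.09 (adjusted p = 0.899); the difference of the responses was -0.42 (95% interval -0.97 to 0.13, adjusted p = 0.875). The other values of Myod1 depended on few libraries. Training in WT gave 0.34 without WT untrained replicate 2, the difference was -0.67 without that library and -0.80 without the 4 Myh7-high libraries, and training in Tg was -0.50 without those 4.

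Myog and Myf5 overlapped between groups in every pairwise contrast. Myog (ENSMUSG00000026459.5, chromosome 1, 134289989 to 134292548) had 1.59, 1.14, 0.807 and 1.09 CPM in Tg trained libraries, against 1.56, 1.29, 1.94 and 2.40 in Tg untrained ones. Of the Tg trained libraries, 3 lay below all 4 untrained ones and replicate 1 did not; the log2FC was -0.64 (SE 0.365, adjusted p = 0.548), with a 95% interval on the fold of 0.374 to 1.09. In WT, Myog had 1.21, 0.857, 2.04 and 2.62 CPM with training and 1.34, 3.04, 0.920 and 1.83 CPM without, ranges that overlapped almost fully. That log2FC was -0.10, and 0.29 without WT untrained replicate 2. For Tg against WT with training Myog was at -0.54 (adjusted p = 0.791), and without WT trained replicate 4 at -0.23. Myf5 (ENSMUSG00000000435.1, chromosome 10, 107482908 to 107486134) was present at 11 to 30 counts per library. It averaged 0.397 ± 0.0944 CPM in Tg trained, 0.498 ± 0.0941 in Tg untrained, 0.511 ± 0.0912 in WT trained and 0.383 ± 0.156 in WT untrained libraries (SD, n = 4 each). Its log2FC ranged from -0.36 to 0.42 in the 4 pairwise contrasts. The 0.42 of training in WT was 0.18 without WT untrained replicate 2, and the 0.39 of Tg against WT without training was 0.16 without it and -0.01 without the Myh7-high libraries. The -0.33 of training in Tg was -0.16 without the Myh7-high libraries, and at this depth a fold change between 0.531 and 1.199 for training in Tg lies within the 95% interval.

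Myog relative to Myod1 was taken as a log2 ratio of CPM, each with 0.1 added. It averaged -2.37 ± 0.36 in Tg trained, -2.08 ± 0.19 in Tg untrained, -2.40 ± 0.70 in WT trained and -2.20 ± 0.40 in WT untrained libraries (SD, n = 4 each). Per kilobase of exon, Myod1 was above Myog in all 16 libraries. With training the ratio differed by -0.24 averaged over genotype, at -0.29 in Tg and -0.20 in WT (exact two-sided permutation test within genotype, p = 0.297, adjusted p over 2 tests 0.593). Tg against WT differed by 0.07 averaged over training, at 0.03 with training and 0.12 without (exact permutation test, p = 0.749, adjusted p = 0.749). The smallest p these permutations can give is 0.000408.

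Myf6, the factor of mature fibres, was the only one of the 4 basic helix-loop-helix genes whose Tg and WT libraries separated in a pairwise contrast. Myf6 (ENSMUSG00000035923.4, chromosome 10, 107492853 to 107494737) had 31.6, 30.2, 26.9 and 31.4 CPM in Tg trained libraries, against 32.0, 35.04, 39.7 and 32.5 CPM in WT trained ones. All 4 Tg trained libraries lay below all 4 WT trained ones. Without training it had 27.7, 25.7, 32.9 and 24.1 CPM in Tg libraries, against 30.3, 38.8, 30.3 and 29.4 CPM in WT libraries, where 3 of 4 Tg libraries lay below all WT ones. The log2FC was -0.21 with training (adjusted p = 0.656) and -0.22 without (adjusted p = 0.319). The untrained value was -0.12 without WT untrained replicate 2 and -0.09 without the 3 Alb-high libraries. Averaged over training it was -0.22 (SE 0.0756, 95% interval on the fold 0.770 to 0.961), with an unadjusted p of 0.0109 and an adjusted p of 0.155 (edgeR). It lay between -0.26 and -0.16 when single libraries or the Myh7-high or Alb-high libraries were left out. Groups without overlap were found for 1 of 9 genes here and for 5.69% of all tested genes, and for 1 of 9 (Pax3) against 9.18% with training in Tg. None of the 9 was without overlap in the other 2 pairwise contrasts, where 4.39% (training in WT) and 8.49% (Tg against WT without training) of all genes were.

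**Figure D3:**
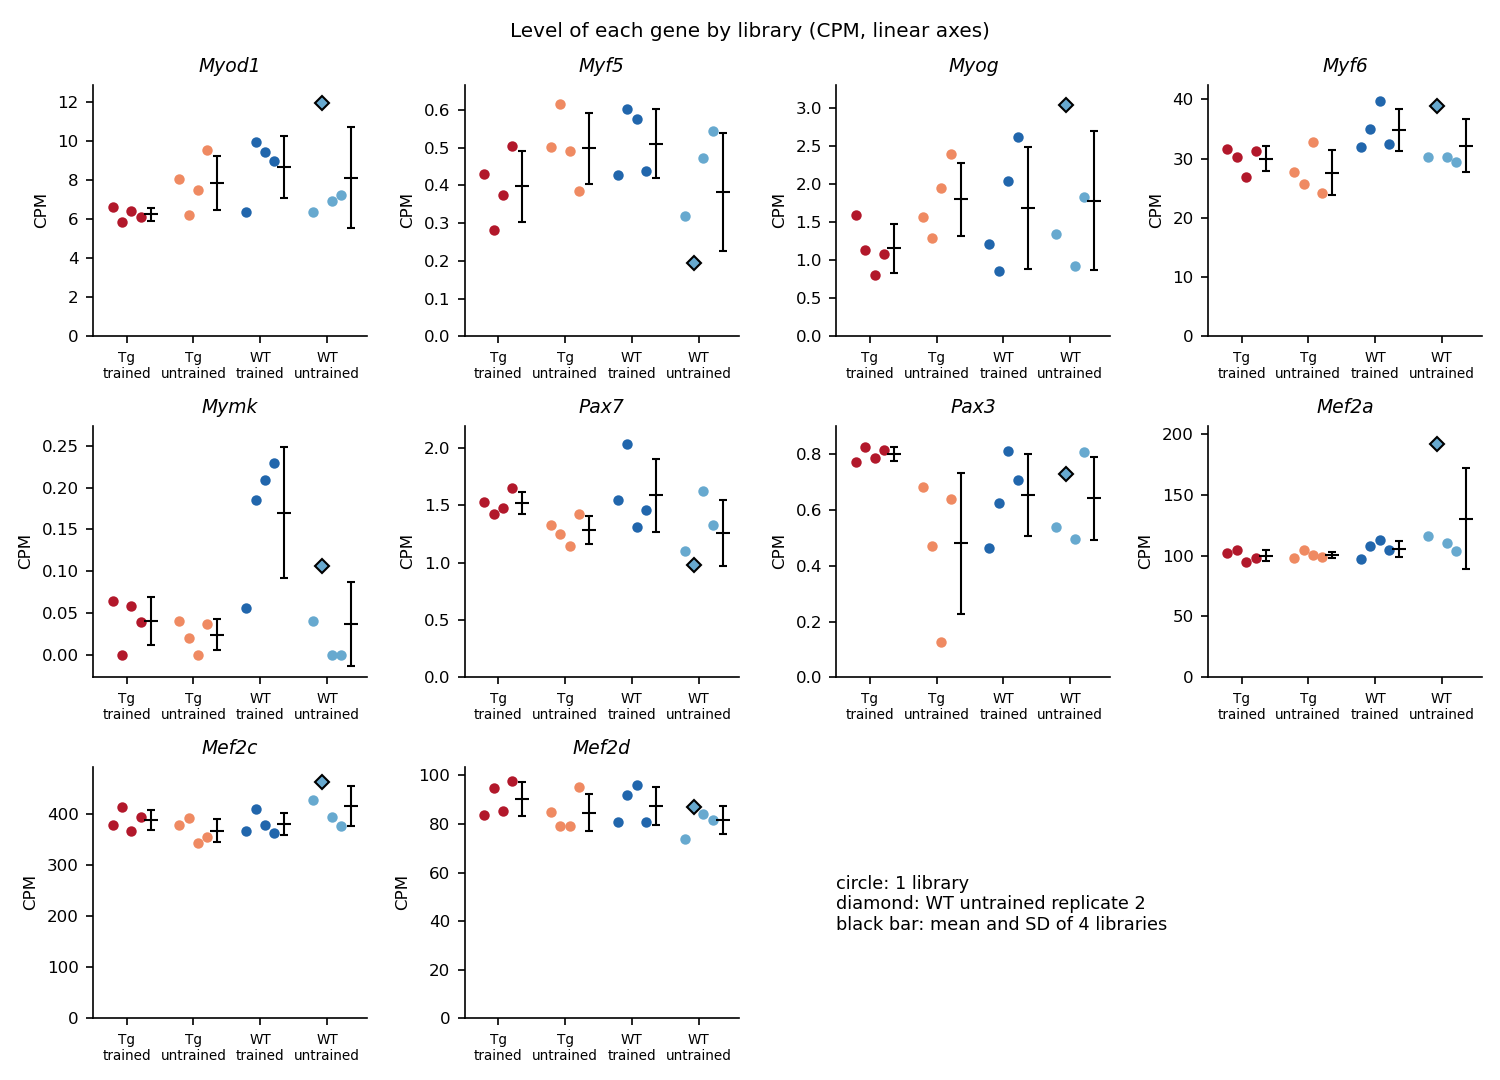
Level of each of the 10 genes (CPM, linear axes) in the 4 groups; circles are libraries, the outlined diamond is WT untrained replicate 2, and black bars are the mean and SD of 4 libraries. The Tg trained libraries sit at 5.84 to 6.59 CPM of Myod1 and below the WT trained ones for Myf6, and WT untrained replicate 2 tops its group for Myod1, Myog, Myf6, Mymk and the 3 Mef2 genes.

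Mymk, the gene of the fusion protein myomaker, had at most 11 counts in any library, and most of them fell in trained WT muscle (30 of 51). Mymk (ENSMUSG00000009214.9, chromosome 2, 27061636 to 27072179) had 3, 0, 3 and 2 counts in Tg trained libraries, 2, 1, 0 and 2 in Tg untrained, 3, 8, 8 and 11 in WT trained and 2, 6, 0 and 0 in WT untrained libraries. The 3 highest libraries of all 16 were WT trained replicates 2, 3 and 4, at 0.185 to 0.229 CPM, and the next was WT untrained replicate 2 at 0.107. With no filter on low counts the log2FC was -2.02 for Tg against WT with training (adjusted p = 0.707) and 2.02 for training in WT (adjusted p = 0.672, edgeR). Mymx, which encodes its fusion partner myomixer, had 0 to 2 counts per library, and Mef2b, the fourth Mef2 gene, 0 to 3; neither was tested.

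The developmental myosins, targets of these factors in embryonic and regenerating muscle, also had their highest values in trained WT muscle. With all 16 libraries and the filter on low counts, edgeR called none. Myh8, the perinatal myosin heavy chain, had 3.97, 3.12, 3.05 and 3.28 CPM in Tg trained libraries, against 4.48, 3.91, 8.04 and 6.24 CPM in WT trained ones. It had 3.37, 2.58, 2.87 and 2.96 CPM in Tg untrained libraries and 2.82, 2.76, 3.49 and 3.04 CPM in WT untrained ones. All 4 WT trained libraries lay above all 4 WT untrained ones, with a log2FC of 0.90 (SE 0.180, adjusted p = 0.0840, edgeR) for training in WT. It passed the threshold with no filter (edgeR, adjusted p = 0.0369), in DESeq2 (adjusted p = 0.00172) and without WT trained replicate 2 (edgeR, adjusted p = 0.0155). It was 0.69 without WT trained replicate 3 (adjusted p = 0.181) and 0.65 without the Myh7-high libraries (adjusted p = 0.239). Tg against WT with training gave -0.75 (SE 0.179, adjusted p = 0.287 in edgeR and 0.0367 in DESeq2), and -0.54 without WT trained replicate 3. The difference of the responses was -0.72 (adjusted p = 0.671), and -0.51 without that library. Myh3, the embryonic heavy chain, ranged from 2.17 to 3.07 CPM in Tg trained and from 2.01 to 8.96 CPM in WT trained libraries, at a log2FC of -1.18 (adjusted p = 0.425). Removing WT trained replicate 3 gave -0.92, and removing replicate 4 gave -0.94. Of the 7 tested embryonic and regeneration targets, 6 were positive and 0 called for training in WT, and 3 were positive and 0 called for training in Tg. Macrophage and monocyte markers were lower in Tg than in WT in 9 of 9 with training and also in 9 of 9 without, with none called. Their sum was 26.6 to 38.0 CPM in Tg trained and 29.1 to 98.0 in WT trained libraries, with no marker at 0. The 98.0 was WT trained replicate 4, and the rest of that group had 29.1 to 54.3. Adipocyte markers (6 of 6 negative) and endothelial markers (8 of 8 positive) also went 1 way for Tg against WT with training, with none called. The part of these markers in the Myh8 and Myh3 values was not tested.

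**Figure D4:**
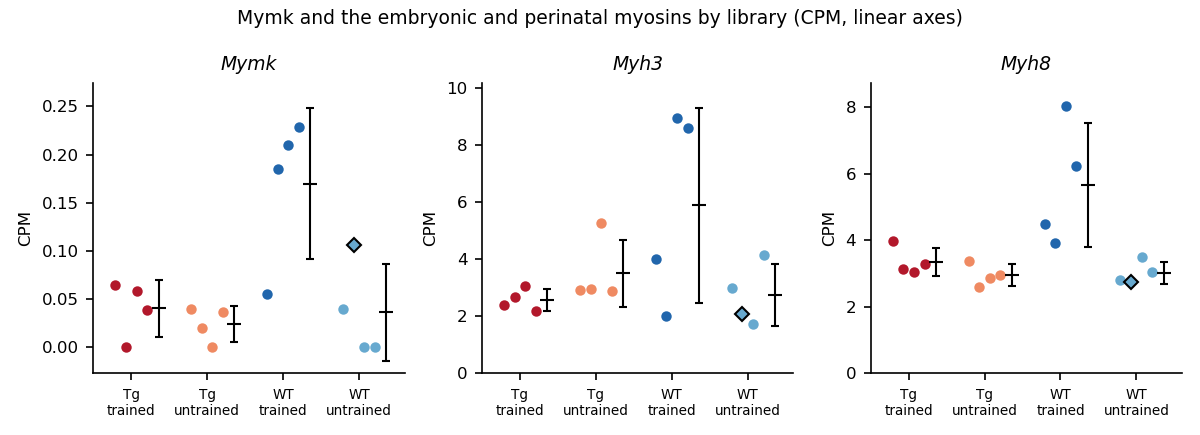
CPM (linear axes) of Mymk, Myh3 and Myh8 by group; circles are libraries, the outlined diamond is WT untrained replicate 2, and black bars are the mean and SD of 4 libraries. WT trained libraries hold the highest values of all 3 genes and also the widest spread.

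Pax7, the marker of satellite cells, had a higher mean in trained than in untrained muscle of both genotypes, without a call. Pax7 (ENSMUSG00000028736.13, chromosome 4, 139737062 to 139833528) had 1.52, 1.42, 1.48 and 1.65 CPM in Tg trained libraries, against 1.32, 1.25, 1.14 and 1.43 in Tg untrained ones. Of the 4 trained Tg libraries, 3 lay above all untrained ones. In WT it had 1.54, 2.04, 1.31 and 1.46 CPM with training and 1.10, 0.978, 1.63 and 1.33 CPM without, and the groups overlapped. Averaged over genotype the log2FC with training was 0.29 (SE 0.115, 95% interval on the fold 1.03 to 1.45), with an unadjusted p of 0.0219 and an adjusted p of 0.266 (edgeR). It was 0.24 in Tg (adjusted p = 0.634), and 0.14 without the Myh7-high libraries. It was 0.34 in WT (adjusted p = 0.525), and 0.20 without WT trained replicate 2. For Tg against WT averaged over training the log2FC of Pax7 was -0.01 (95% interval -0.26 to 0.23).

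Other satellite cell markers were mixed in direction. Of 11 tested, 5 were positive and 6 negative for training in Tg, and 8 were positive and 3 negative for training in WT, with 0 called in both. Chodl was negative in both, at -0.42 in Tg (adjusted p = 0.344) and -0.49 in WT (adjusted p = 0.377). Cdh15, the adhesion protein M-cadherin, was at 0.11 and 0.02. Calcr, the calcitonin receptor of quiescent satellite cells, had 4 to 25 counts per library, 0.0787 to 0.439 CPM. The 11 markers summed to 1103 to 1401 CPM, and this list includes Des and Itga7, which fibres express too.

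Pax3, the other paired-box factor, had the largest log2FC of the set for training in Tg, and its size depended on 1 library. Pax3 (ENSMUSG00000004872.15, chromosome 1, 78101267 to 78197134) had 0.773, 0.825, 0.787 and 0.816 CPM in Tg trained libraries, against 0.682, 0.471, 0.127 and 0.640 CPM in Tg untrained ones. The groups did not overlap, and Tg untrained replicate 3 was the lowest of all 16 libraries with 7 counts. The log2FC was 0.74 (SE 0.323), with an unadjusted p of 0.0354 and an adjusted p of 0.418 (edgeR). Without Tg untrained replicate 3 it was 0.41, and without the 4 Myh7-high libraries, which include it, 0.28. In WT, Pax3 averaged 0.652 ± 0.146 CPM with training and 0.642 ± 0.149 CPM without (SD, n = 4 each), a log2FC of 0.0028 with a 95% interval of -0.70 to 0.70. The 7 to 47 counts behind each value limit what could be seen for this gene.

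Mef2a had a lower mean in Tg than in WT muscle without a call, and the size of that difference depended on a single WT library. Mef2a (ENSMUSG00000030557.17, chromosome 7, 67231163 to 67372858) had 103, 104, 94.5 and 98.0 CPM in Tg trained libraries and 98.4, 104, 101 and 98.6 CPM in Tg untrained ones. It had 97.2, 108, 113 and 105 CPM in WT trained libraries and 116, 192, 110 and 104 CPM in WT untrained ones. The 192 CPM of WT untrained replicate 2 stood far above the other 15 libraries, which lay between 94.5 and 116 CPM. The log2FC of Tg against WT without training was -0.37 (SE 0.141, unadjusted p = 0.0175, adjusted p = 0.216), and without that library -0.13. Training in WT gave -0.30 (adjusted p = 0.523), and without that library -0.06. Tg averaged over training gave -0.23 (adjusted p = 0.252), and without that library -0.10. Mef2a overlaps Lysmd4 on the opposite strand and the gene models Gm44667 and Gm44668 on the same strand. Strand was not stated for the counting. Lysmd4 had 4.37 to 5.16 CPM, and the part of shared reads was not tested.

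Mef2c and Mef2d varied least of the 10 genes, with an SD of log2 CPM over the 16 libraries of 0.11 for Mef2c and 0.12 for Mef2d. Mef2c (ENSMUSG00000005583.16, chromosome 13, 83504034 to 83667080), the Mef2 gene with the highest level per length here, averaged 389 ± 20.03 CPM in Tg trained, 368 ± 22.1 in Tg untrained, 380 ± 21.6 in WT trained and 416 ± 38.6 in WT untrained libraries (SD, n = 4 each). Tg against WT without training gave a log2FC of -0.18 (SE 0.0765, unadjusted p = 0.0345, adjusted p = 0.275), a fold with a 95% interval of 0.791 to 0.990. Leaving out WT untrained replicate 2, the highest library for Mef2c (464 CPM), gave -0.12. Tg against WT with training gave 0.03 (95% interval -0.13 to 0.19). Mef2d (ENSMUSG00000001419.17, chromosome 3, 88142372 to 88172086) averaged 90.3 ± 6.87 CPM in Tg trained, 84.6 ± 7.55 in Tg untrained, 87.3 ± 7.87 in WT trained and 81.5 ± 5.66 in WT untrained libraries (SD, n = 4 each). Its log2FC lay between 0.05 and 0.10 in all 4 pairwise contrasts, and the 95% interval on the fold with training averaged over genotype was 0.981 to 1.16. An antisense gene, 1700113A16Rik, overlaps Mef2d and had 1.23 to 2.40 CPM.

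WT untrained replicate 2 stood apart in several of these genes. It was above the mean of the other 3 libraries of its group in 7 of the 9 tested genes, by 1.15 log2 units for Myog, 0.81 for Mef2a and 0.80 for Myod1, and below it for Myf5 (-0.86) and Pax7 (-0.41). The median deviation of its 9 genes was 0.24, against 0.0060 over 12270 genes of this library. WT trained replicate 1 lay below the mean of the other 3 of its group in all 9 genes, at a median of -0.16. Over 12270 genes of that library the median was 0.0079. The lower myofibre marker sum of WT untrained replicate 2 went with endothelial markers at 124 CPM and smooth muscle and pericyte markers at 266 CPM. These and its Schwann cell markers (24.1 CPM) were the lowest sums of all 16 libraries. Its macrophage and monocyte markers (80.0 CPM) and adipocyte markers (117 CPM) had the highest sums of its group. Its fibroblast, satellite cell and slow fibre sums lay within the range of the rest of its group. The part of this library's makeup in its levels of the 9 genes was not tested.

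**Figure D5:**
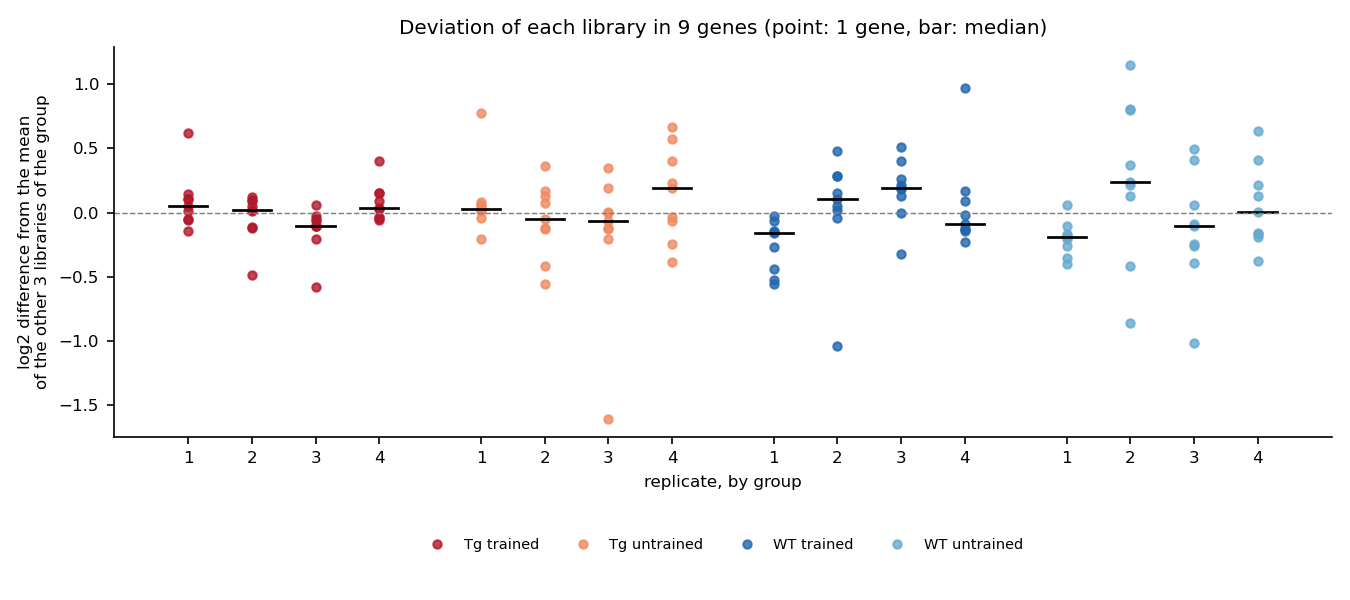
Difference in log2 CPM (y axis) of each library from the mean of the other 3 of its group, for the 9 tested genes (points) and their median (bars), by group and replicate (x axis). WT untrained replicate 2 has the highest median, 0.24, and Tg untrained replicate 3 has the lowest point, Pax3.

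The wider pathway was read from 8 lists of 85 genes, of which 84 were in the table and 80 tested. They hold the dimer partners and inhibitors of the myogenic factors, corepressors and activators of Mef2, upstream regulators, embryonic and adult targets, and Mef2b. None of the 80 was called for training in Tg, training in WT, Tg against WT with training, the difference of the responses or training averaged. Id4 and Meox2 were called for Tg against WT without training and Meox2 and Myoz2 for Tg averaged over training, 2.50% of 80 in each, beside 0.743% and 1.12% of all tested genes, and all were higher in Tg. At an unadjusted p under 0.05, edgeR counted 12 of the 80 for training in Tg, 15 for training in WT, 8 for Tg against WT with training and 17 without. It counted 6 for the difference, 20 for training averaged and 17 for Tg averaged; the shares over all genes are those given for this p above.

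Id4 was the inhibitor called. The Id proteins bind E proteins but not DNA and so keep the myogenic factors from pairing. Id4 had 1.18, 1.60, 1.33 and 1.06 CPM in Tg untrained libraries, against 0.719, 0.658, 0.448 and 0.685 CPM in WT untrained ones. The groups did not overlap; the log2FC was 1.03 (SE 0.219, adjusted p = 0.0413, edgeR). The call was lost in 14 of 26 alternatives, among them the removal of any of these 8 libraries or of Tg trained replicate 2 or 4, while the log2FC stayed between 0.84 and 1.12. With training Id4 was at 0.28 in Tg against WT (adjusted p = 0.826). Of the 12 inhibitors tested, 9 were positive for Tg against WT without training and 1 of 12 was positive for training in Tg, where Id1 was at -0.82 (adjusted p = 0.140) and Twist2 at -1.22 (adjusted p = 0.257).

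Meox2, a homeobox gene of muscle precursors that is also expressed in vessels, was the upstream regulator called. It had 8.27, 8.51, 9.96 and 8.04 CPM in Tg trained libraries, 9.35, 11.0, 9.77 and 10.2 in Tg untrained, 8.70, 8.66, 4.61 and 5.60 in WT trained and 6.57, 5.19, 5.02 and 6.45 in WT untrained libraries. All 4 Tg untrained libraries lay above all 4 WT untrained ones, and the trained groups overlapped. The log2FC was 0.79 without training (SE 0.164, adjusted p = 0.0358) and 0.56 averaged over training (SE 0.116, adjusted p = 0.0282, edgeR). The first call was lost in 13 of 26 alternatives, again with any of those 8 libraries or Tg trained replicate 2 or 4 left out, at 0.69 to 0.86. The second was lost in 9 of 25, among them without WT trained replicate 4, Tg trained replicates 2, 3 or 4, WT untrained replicate 3, or Tg untrained replicates 2 or 4, at 0.44 to 0.63. Endothelial markers were positive in 8 of 8 and smooth muscle and pericyte markers in 7 of 8 for Tg against WT without training, with Cspg4 and Notch3 called. Endothelial markers summed to 167 to 213 CPM in Tg untrained and 124 to 179 in WT untrained libraries, with no marker at 0. Smooth muscle and pericyte markers summed to 400 to 451 CPM in Tg untrained and 266 to 405 in WT untrained libraries, also with none at 0. Both WT minima were replicate 2, and the rest of WT untrained had 159 to 179 CPM for endothelial and 384 to 405 for smooth muscle and pericyte markers. In the same contrast, 6 of 6 Schwann cell, 7 of 8 slow fibre and 5 of 6 adipocyte markers were positive, as were 2 of 8 fibroblast and 0 of 9 macrophage and monocyte markers, with none called. Of the satellite cell markers 8 of 11 were positive, and of the myofibre markers 4 of 8, also with none called. For Tg against WT with training, where Meox2 was not called, 8 of 8 endothelial and 6 of 8 smooth muscle and pericyte markers were positive. For Tg averaged over training, where Meox2 was called, 8 of 8 endothelial markers were positive with none called. There 7 of 8 smooth muscle and pericyte markers were positive, with Pdgfrb, Cspg4 and Notch3 called. The part of these markers in the Meox2 and Id4 values was not tested.

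Of the adult sarcomeric and metabolic targets, Myoz2 was called. It encodes calsarcin-1, a Z-disc protein of slow fibres and heart, and was higher in Tg averaged over training, with a log2FC of 0.99 (SE 0.230, adjusted p = 0.04996). It had 16.5 to 26.6 CPM in Tg trained, 12.1 to 29.4 in Tg untrained, 11.6 to 15.9 in WT trained and 3.11 to 11.6 in WT untrained libraries, so Tg and WT did not overlap within either training state. The call was lost in 18 of 25 alternatives, at 0.55 to 1.10; of the single libraries, it held only without Tg trained replicate 1, WT untrained replicate 2 or WT untrained replicate 4. Slow fibre markers summed to 63.6 to 191 CPM in Tg untrained and 51.6 to 76.3 in WT untrained libraries, and to 70.7 to 105 CPM in Tg trained and 60.6 to 113 in WT trained libraries. Of the 8 slow fibre markers, a list that holds Myoz2 itself, 7 were positive for Tg against WT without training and 2 with it. For Tg averaged over training all 8 were positive, and Myoz2 alone was called. In that contrast 4 of 8 myofibre markers were positive and 4 negative, and the myosin Myh2 was called higher. Myh2 had 977 to 1898 CPM in Tg trained and 786 to 1708 in Tg untrained libraries. Its levels were 536 to 697 CPM in WT trained and 127 to 613 in WT untrained libraries. The part of these markers in the Myoz2 value was not tested. With training, 21 of the 24 adult targets were positive in Tg and 22 of 24 in WT with 0 called, at a median log2FC of 0.13 in Tg and 0.17 in WT, against 0.0024 in Tg and 0.0054 in WT over all genes. Adipocyte markers were negative in 6 of 6 in both genotypes with training, with Adipoq, Lep, Plin1 and Cidec called when averaged. Fibroblast markers were negative in 8 of 8 in Tg and 7 of 8 in WT with none called, and the WT untrained group holds the library with the myofibre sum of 123468 CPM. The part of these in the adult target values was not tested.

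The genes that followed the members most closely across the 16 libraries were found by the smallest root mean square (RMS) difference in centred log2 CPM, among named genes that varied at least 0.8 times as much. For Myod1 these were Akt1, a kinase of growth signalling, Eif4ebp1, a repressor of translation initiation, and Ybx3, with RMS differences of 0.17, 0.18 and 0.20 against an SD of 0.31 for Myod1. For Myf6 they were Stt3b, Stim2 and Rab10 (0.10, 0.11 and 0.11; SD 0.19). For Mef2a they were Cdc27, Psma5 and Naa25 (0.05, 0.06 and 0.06; SD 0.24). Without WT untrained replicate 2 the SD of Mef2a was 0.08 over 15 libraries, and the RMS differences of these 3 were 0.05, 0.06 and 0.06. Mef2c was followed by Rc3h2, Kdm7a and Dars (0.04, 0.05 and 0.05; SD 0.11), and Mef2d by Speg, Brd3 and Kmt2d (0.06 each; SD 0.12). These are descriptions of the same libraries and of their depth and composition.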

How the data were processed

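RNA-seq of skeletal muscle was deposited as a table of RSEM expected counts per gene for 16 libraries, 4 in each of 4 groups, made by the authors and not normalized. Per the submitters' processing notes, STAR 2.7.8a, RSEM 1.3.2 and the mm10 build were used; no source used here gives the annotation release or strand setting. Reads shared by several genes are divided by RSEM, and 12.5% of the values were not whole, those of Mef2a and Mef2d among them. Counts were rounded. Gene positions and exon lengths came from GENCODE M21 (GRCm38), which matched 55227 of 55487 identifiers. No replicates agreed within sampling noise.

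Genes were kept with filterByExpr, and all 16 libraries entered a single quasi-likelihood model in edgeR 4.0.16 (R 4.3.3) with TMM factors and a mean per group. Benjamini-Hochberg adjustment ran over all genes of a contrast, with calls under 0.05. The biological coefficient of variation was 14.1%. The labels do not say that a replicate number pairs libraries. Of 24 same-number pairs, 9 had a correlation of deviations above 0.1. The mean correlation was 0.0189 for same-number pairs and -0.0052 for other pairs. No test of pairing was run on these values. Alternatives were RLE factors, no filter, a filter at 1 CPM, robust dispersion, the replicate block, DESeq2 1.42.0, limma-voom (limma 3.58.1), leaving out each library, only the 8 libraries of a contrast, and leaving out libraries above 10 CPM of Myh7 or of Alb, a liver transcript. Those for the called pathway genes, Chchd4, Myh3 and Myh8, and the followers without WT untrained replicate 2, were added after seeing the data. The model was tested on simulated data.

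The genes, lists and tests were chosen with earlier results of these data known. The naming rule took all 10 genes, Chchd4, up to 4 called genes of a list (or 2 with the smallest p), cell type markers set beside a gene, and the 3 closest followers of each gene above 5 CPM. Myh3, Myh8 and the named overlapping genes fall under it or were chosen after their values were seen. Figures were drawn with matplotlib.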

Additional observations from a re-analysis of the deposited data

Results flagged for a closer look

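In WT untrained muscle, replicate 2 was far from the other 3 libraries for 3 of the 10 genes: Myod1 had 11.9 CPM against 6.35 to 7.21 in the others, Myf6 38.8 CPM against 29.4 to 30.3, and Mef2a 192 CPM against 104 to 116. In each, the gap to the nearest library exceeded Dixon's 95% critical value for 4 samples (0.829) as a share of the group's range. In all, 44 groups of 4 were tested, and chance alone flags about 1 in 20. The 3 flags fall in the same library, so they are not separate events.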

How the results depend on the processing

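The count of called genes among the 9 stayed at 0 in all 7 contrasts under each alternative, and none of 1597 recomputed log2 fold changes was called. Of the 63 values, 20 changed sign at least once. Among values above 0.2 in size 4 such changes were seen; the largest value affected was Pax3 for Tg against WT without training, -0.43, which was 0.10 without the 4 Myh7-high libraries, where Myf5 was at -0.01 in place of 0.39. The Myog to Myod1 ratio for Tg averaged over training ranged from -0.091 (without WT trained replicate 2) to 0.18 (without WT trained replicate 4) when single libraries were left out, was also negative without WT untrained replicate 3 (-0.022), and was called in none; with training it ranged from -0.35 to -0.08. The cause was not tested.

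The replicate numbers share no animal or batch in the labels, and 7 of 16 libraries correlated best with a library of their own number. The count that chance alone would give was not worked out, so no conclusion on pairing is drawn from it. With the replicate block, 0 of the 9 genes were called, and of all genes 66 in place of 130 were called for Tg against WT without training, 16 in place of 80 for training averaged and 1 in place of 2 for Tg against WT with training; the call of Id4 and the untrained call of Meox2 were lost, as was that of Myoz2.

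Calls over all genes, the background of every count, moved more. DESeq2 called 132 for training in Tg (edgeR 0), 68 for training in WT (25), 55 for Tg against WT with training (2), 442 without (130), 37 for the difference (9), 366 for training averaged (80) and 644 for Tg averaged (196). Without single libraries the edgeR counts ranged from 0 to 93 for training in Tg (93 without WT untrained replicate 2), 16 to 30 for training in WT, 1 to 16 for Tg against WT with training and 43 to 138 without (16 and 138 without WT trained replicate 2), 6 to 12 for the difference, 15 to 389 for training averaged (389 without WT trained replicate 4) and 29 to 374 for Tg averaged (374 without WT trained replicate 2, 29 without Tg trained replicate 4). Without the filter 5 (training in Tg), 1 (Tg against WT with training) and 15 (the difference) were called, and with the filter at 1 CPM 1 for Tg against WT with training. With only the 8 libraries of a contrast, 123 (training in Tg), 10 (training in WT), 5 (Tg against WT with training) and 40 (without) were called. Without the Myh7-high libraries 9 (training in Tg), 32 (Tg against WT without training), 4 (the difference) and 41 (training averaged) were called, and without the Alb-high libraries 104 (training in Tg), 42 (training in WT) and 584 (training averaged).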
